A study of Mus musculus with 1505 samples.

Results

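Cadherins and the non-clustered protocadherins are the adhesion genes followed here, in single neurons of the mouse primary motor cortex. The members were all genes of the exonic count table named Cdh and a number, together with Pcdh1, Pcdh7, Pcdh8, Pcdh9, Pcdh10, Pcdh12, Pcdh15, Pcdh17, Pcdh18, Pcdh19 and Pcdh20, which gave 33 of the 42381 genes measured. They comprised 4 type I and 13 type II classical cadherins, 5 atypical cadherins, 3 δ1-protocadherins, 5 δ2-protocadherins and 3 other protocadherins.

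Classical cadherins are calcium-dependent adhesion molecules whose outer domains bind cadherins on the opposite membrane and whose cytoplasmic tails bind catenins, which link them to actin. Type I cadherins bind mostly their own kind, whereas type II cadherins also pair with selected other type II members. The δ-protocadherins adhere more weakly, and the WAVE complex, an actin regulator, binds the tails of many of them; in cortex, combinations of cadherins and protocadherins have long been studied as markers of layers, projection classes and synaptic partners.

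The cells came from acute slices of adult mice of both sexes, either wild-type C57Bl/6 or carriers of the Ai9 tdTomato reporter together with Viaat-, Sst-, Vip-, Pvalb-, Npy-, Vipr2-, Slc17a8- or Gnb4-Cre or Slc17a8-iCre, and the labels do not give the line of a cell, so the driver lines decided which types could be found by fluorescence. Each cell was recorded with a patch pipette, its cytosol was aspirated into that pipette, in most cells with the nucleus drawn out at the tip, and its RNA was made into a Smart-seq2 library (Patch-seq). At 25 °C, 1228 recorded cells had a transcriptomic type (t-type) and 92 had none. A further 185 cells, 177 of them with a t-type, were recorded at 34 °C in Sst-Cre and Pvalb-Cre mice, with kynurenic acid and picrotoxin in the bath to block fast glutamatergic and GABAergic transmission.

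The t-typed cells at 25 °C fell into 10 families. Inhibitory families were Pvalb (286 cells), Sst (272), Vip (152), Lamp5 (92) and Sncg (13), each named after a marker gene. Excitatory families were intratelencephalic (IT, 253 cells), extratelencephalic (ET, labelled PT, 48), corticothalamic (CT, 83), layer 6b (L6b, 24) and near-projecting neurons (NP, 5). The authors assigned t-types from the same RNA, so the levels by family and t-type given here are not independent of the labels. Since the labels name no animal, a group of cells counted as 1 sample: no p-value was computed, intervals cover counting error only, and reads copied by PCR without molecular identifiers are not independent molecules.

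A t-typed cell at 25 °C had between 2588 and 18172944 exonic counts, with a median of 1267852.5. The labels fitted the markers: the 4 GABAergic marker genes summed to between 3232 and 10050 CPM (counts scaled to a total of 1000000 in each group) in the inhibitory families and to at most 58.9 CPM in the excitatory ones, while the 4 glutamatergic markers summed to at least 489 CPM in excitatory and at most 18.1 CPM in inhibitory families. The Pvalb, Sst, Vip, Lamp5 and Sncg genes were each highest in the family of that name. RNA of other cells was present too, since the 8 microglial markers summed to between 280 and 964 CPM and the 7 oligodendrocyte markers to between 230 and 2034 CPM in the families. Doublets were not searched for, as cells were aspirated singly, and no 2 cells held identical exonic counts.

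Levels are given as CPM, from exonic counts summed over the cells of a group. Between 2 groups, a member was counted as higher or lower where the ratio, after adding 1 CPM to both, was at least 2-fold and the higher group had at least 10 CPM. The same rule over all genes gave the background share printed with each count. Sample titles carry a date, and directions were also counted over dates that held cells of both groups. The cells of 25 °C were divided into an earlier period and a later one, the last calendar year in these dates.

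Of the 33 members, 24 reached 10 CPM in at least 1 family. The 9 that did not were Cdh1, the E-cadherin of epithelia (at most 0.082 CPM), Cdh3 (3.30 CPM, in L6b, all from 1 cell), Cdh5, the VE-cadherin of vessels (4.25 CPM, in CT), Cdh16 (0.635 CPM), Cdh17 (0.172 CPM), Cdh19, known from Schwann cells (1.44 CPM), Cdh23, a tip-link cadherin of hair cells (3.04 CPM, in Vip), Cdh26 (1.39 CPM) and Pcdh12, known from endothelium (0.619 CPM). Of these 9, Cdh23 reached 16.9 CPM in 1 t-type, Vip Mybpc1_1, and Cdh26 10.7 CPM in Pvalb Gabrg1.

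A run of 5 of the genes that did lies on mouse chromosome 15, in GENCODE M21 models on GRCm38: Cdh6 at chr15:13028701-13173675 on the minus strand, and Cdh9 at chr15:16728756-16857094, Cdh10 at chr15:18818947-19014236, Cdh12 at chr15:20449265-21589533 and Cdh18 at chr15:22549022-23474418 on the plus strand. Across the 53 t-types of at least 5 cells, Pearson's r of log2 levels between neighbours ran only from -0.29 (Cdh6 and Cdh9) to 0.05 (Cdh12 and Cdh18), as a description over t-types that share libraries and differ in depth. RefSeq promoter windows were given for 21 members, 19 of them among the 24. In the 250 bases before the start, these 19 held a median of 11 CG dinucleotides (2 to 30), against 6 over all 32851 promoters (quartiles 2 and 16), and 2 of them held TATAAA on either strand, against 12.4% of all promoters. The start is that of a RefSeq transcript, and the windows of Cdh7, Cdh10, Cdh12, Cdh18 and Pcdh15 lay within the GENCODE models of these genes, not upstream of them.

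The sequences just upstream of Cdh6 and Cdh9 are shown because this neighbouring pair, which had the lowest r of the 4 neighbours, shared the longest run of letters among the 171 pairs of members. The shared 15 bases are in capitals, both read 5′ to 3′ on the gene's strand (GRCm38.p6). The Cdh6 stretch is chr15:13173676-13173925 on the minus strand and the Cdh9 stretch chr15:16728665-16728755 on the plus strand.
Cdh6: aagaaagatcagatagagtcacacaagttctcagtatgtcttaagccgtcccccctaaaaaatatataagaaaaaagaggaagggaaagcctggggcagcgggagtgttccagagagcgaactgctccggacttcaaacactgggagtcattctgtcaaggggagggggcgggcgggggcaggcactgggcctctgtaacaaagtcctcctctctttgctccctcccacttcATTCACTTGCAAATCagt
Cdh9: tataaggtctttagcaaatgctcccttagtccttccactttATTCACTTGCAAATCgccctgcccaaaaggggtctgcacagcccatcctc
The run ATTCACTTGCAAATC stood in 2 of the 32851 promoter windows on either strand (0.00609%), those of these 2 genes, and its last base was at -4 from the RefSeq start of Cdh6 and at -195 from that of Cdh9. The next longest run shared by any pair was 13 bases and the median over pairs 9 bases. The match is a description of letters, and the Cdh9 sequence was ended where the GENCODE gene model begins.

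**Figure D1:**
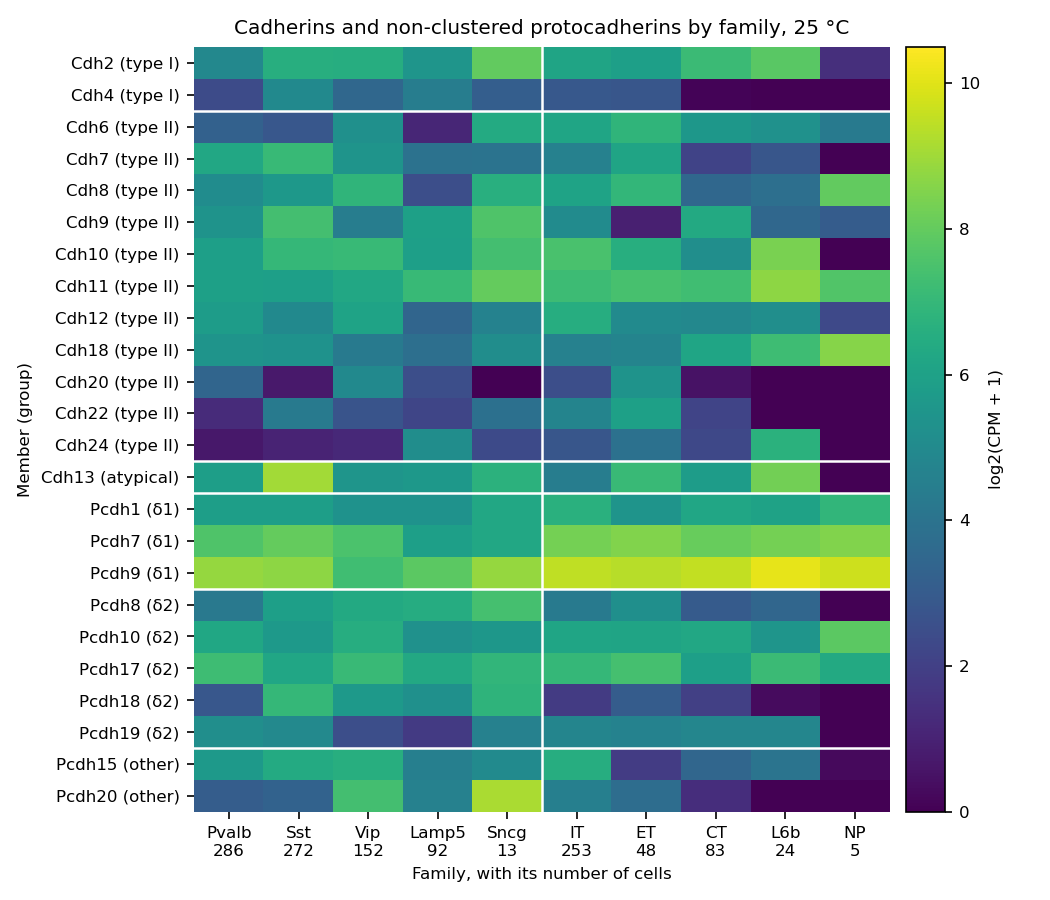
Levels of the 24 members that reached 10 CPM, as log2(CPM + 1) in colour, in rows ordered by group, across the 10 families at 25 °C in columns with their cell numbers; white lines part the groups and the inhibitory from the excitatory families. Pcdh9 is bright in all columns, Cdh13 brightest in Sst, Pcdh20 in Sncg and Vip, and Cdh9 nearly absent in ET.

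Across families, the members summed to between 1076 CPM in Lamp5 and 3362 CPM in L6b. Per kilobase of exon, so that genes of different length can be compared, Pcdh9, a δ1-protocadherin, had the highest level of all members in 8 of the 10 families, from 33.6 CPM per kb in Lamp5 to 163 CPM per kb in L6b. In Vip and Sncg the highest was Pcdh20, with 29.7 and 106 CPM per kb against 22.5 and 67.1 CPM per kb for Pcdh9. With each cell thinned to 200000 counts, which left out 71 shallower cells, a cell had reads of a median of 6 members in Lamp5, 12 in IT and 14 in ET.

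Among the δ1-protocadherins, Pcdh9 was at 152 CPM in Vip, 228 in Lamp5, 422 in Sst and 455 in Pvalb, but at 664 in ET, 718 in IT and 734 in CT. Pcdh7 was lowest in Lamp5, at 59.1 CPM, and between 185 CPM in Vip and 360 CPM in ET in the other families of more than 40 cells. Pcdh1 lay between 39.5 CPM in Vip and 99.2 CPM in IT. These 3 were above 10 CPM in all 10 families, as were Cdh11, Cdh18, Pcdh10 and Pcdh17.

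Both expressed type I cadherins are neural: Cdh2 (N-cadherin), found at most synapses, was at 28.5 CPM in Pvalb and 141 CPM in CT, with 252 CPM in Sncg. Cdh4 (R-cadherin) was at 31 CPM in Sst, 20.8 in Lamp5 and 10.3 in Vip, and below 10 CPM in the other families. Cdh13 (T-cadherin), which lacks a cytoplasmic tail and is held by a lipid anchor, was the atypical member that reached 10 CPM. It stood at 522 CPM in Sst, 305 in L6b, 138 in ET, 106 in Sncg and between 20.6 (IT) and 57.5 CPM (Pvalb) in the other larger families. No read of Cdh13 was found in the 5 NP cells, which allows a level of up to 0.33 CPM.

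The type II cadherins were high in different families. Cdh6 ran from 1.19 CPM in Lamp5 and 6.30 in Sst to 71 in IT and 115 in ET. Cdh8 ran from 4.71 CPM in Lamp5 and 10.2 in CT to 114 in Vip, 124 in ET and 253 in NP, where 82.5% of its reads came from 1 cell. Cdh9 ran from 0.885 CPM in ET to 165 in Sst and 193 in Sncg. These 3 genes thus peaked in ET, NP and Sncg, and Cdh7 was highest in Sst (134 CPM) and Pvalb (78.2 CPM), and at 3.34 CPM in CT. Cdh10 was highest in L6b (334 CPM) and IT (177 CPM), Cdh12 in IT (91.7 CPM) and Vip (67.8 CPM), and Cdh11 in L6b (422 CPM) and Sncg (255 CPM). Cdh18 reached 383 CPM in NP, of which 69.5% came from 1 cell, and 149 CPM in L6b. A further 3 type II members were low in most families: Cdh20 peaked in ET (40.8 CPM) and Vip (30.2 CPM), Cdh22 in ET (60.8 CPM) and IT (25.9 CPM), and Cdh24 in L6b (102 CPM) and Lamp5 (34.1 CPM).

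Among the δ2-protocadherins, Pcdh10 and Pcdh17 varied least: over the 7 families of more than 40 cells, Pcdh10 lay between 38.4 and 92.7 CPM and Pcdh17 between 59.6 and 166 CPM. Pcdh18 was at 126 CPM in Sst, 113 in Sncg, 49.99 in Vip and 37.7 in Lamp5, but at 6.18 in Pvalb and between 0 and 7.35 CPM in the excitatory families. Pcdh8, also known as arcadlin and induced by neuronal activity, was highest in Sncg (167 CPM, of which 64.8% came from 1 cell), Lamp5 (90.8 CPM) and Vip (82.8 CPM) and at 7.18 CPM in CT. Pcdh19, an X-linked epilepsy gene in humans, lay between 23.3 and 35.4 CPM in Pvalb, Sst, Sncg, IT, ET, CT and L6b and at 2.41 CPM in Lamp5 and 4.74 in Vip. Of the remaining protocadherins, Pcdh20 was at 582 CPM in Sncg and 163 in Vip, with at most 23.3 CPM elsewhere, and Pcdh15, the hair-cell tip-link partner of Cdh23, was at 96 CPM in Vip and 90.9 in IT but 2.65 CPM in ET.

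Over the 7 families of more than 40 cells, 20 of the 24 members spanned at least 4-fold with 10 CPM at the top, where 35.5% of the 12743 genes tested did. The median span was 3.97 on the log2 scale over members and 1.55 over all genes. The 4 that spanned less were Cdh11, Pcdh1, Pcdh10 and Pcdh17. The list was described with this span only after its values were known.

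**Figure D2:**
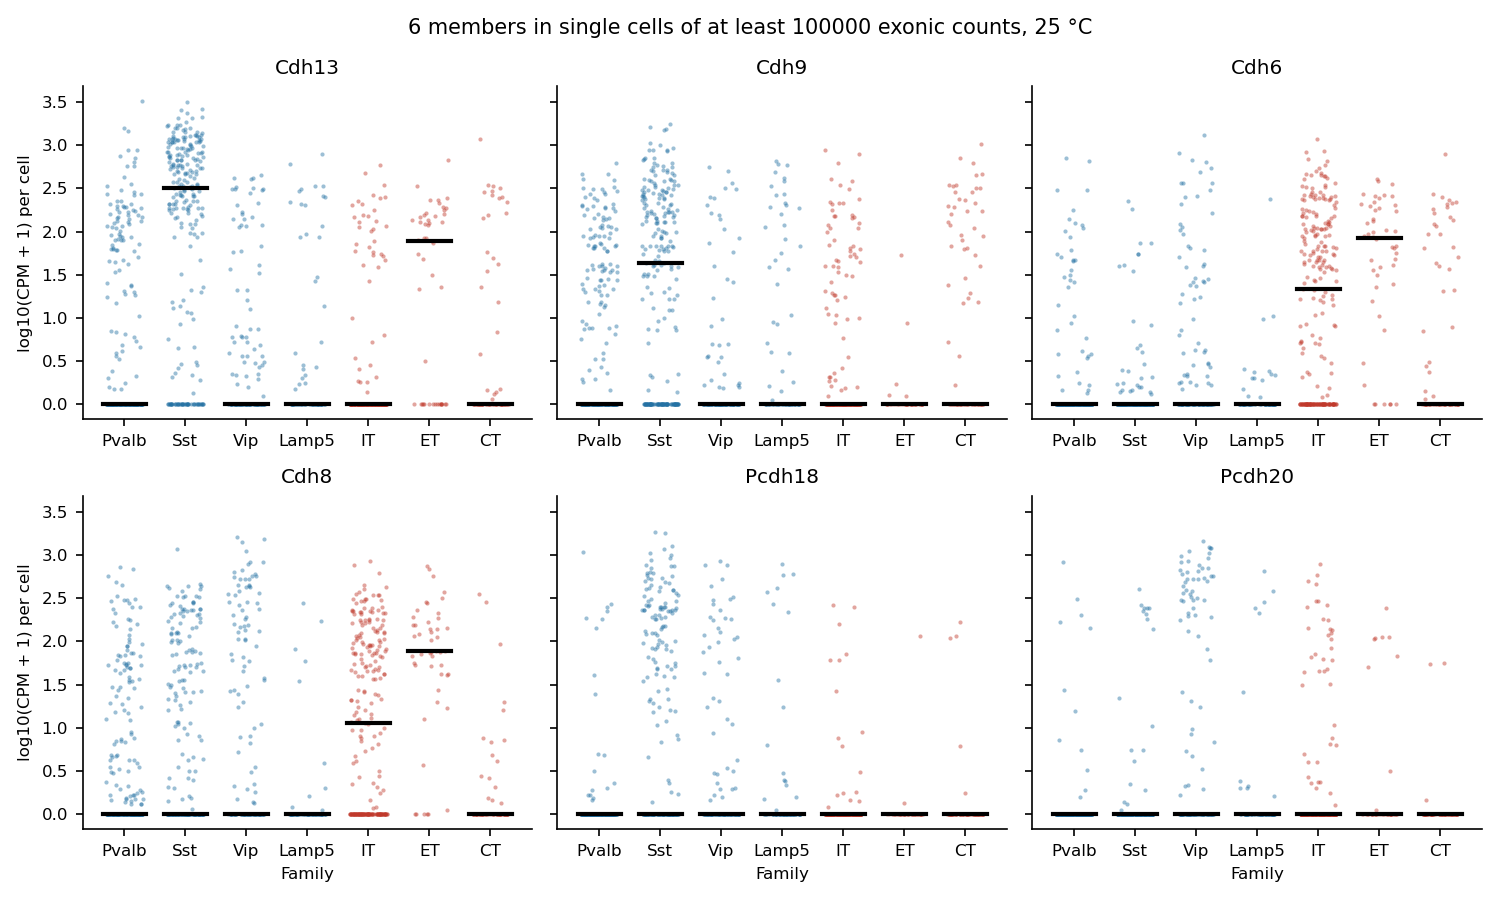
Levels of 6 members in single cells of at least 100000 exonic counts (1148 cells), as log10(CPM + 1), by family at 25 °C; points are cells, in blue for inhibitory and red for excitatory families, and bars are medians. In most families many cells lie at 0, and the median is above 0 for Cdh13 in Sst and ET, for Cdh9 in Sst, and for Cdh6 and Cdh8 in IT and ET.

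Within a family, cells differed widely. Cdh13 had a median of 317 CPM over Sst cells (quartiles 10.6 and 826 CPM, highest 3179 CPM) and 77.5 CPM over ET cells, but 0 over Pvalb, Vip, Lamp5, IT and CT cells. Cdh6 had a median of 83.3 CPM over ET and 18.9 CPM over IT cells, and 0 in the other 5 families plotted. Thinned to equal depth, 78.9% of Sst cells held a read of Cdh13 (exact 95% binomial interval 73.2 to 83.9%) and 13.8% of IT cells did (9.66 to 18.8%). Pcdh18 was read in 43.9% of Sst cells (37.5 to 50.5%) and 4.03% of Pvalb cells (2.03 to 7.10%). Pcdh20 was read in 35.6% of Vip cells (27.9 to 43.8%), and the upper quartile of Vip cells began at 218 CPM. Neither gene was read in most thinned cells of the larger family where it was highest.

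**Figure D3:**
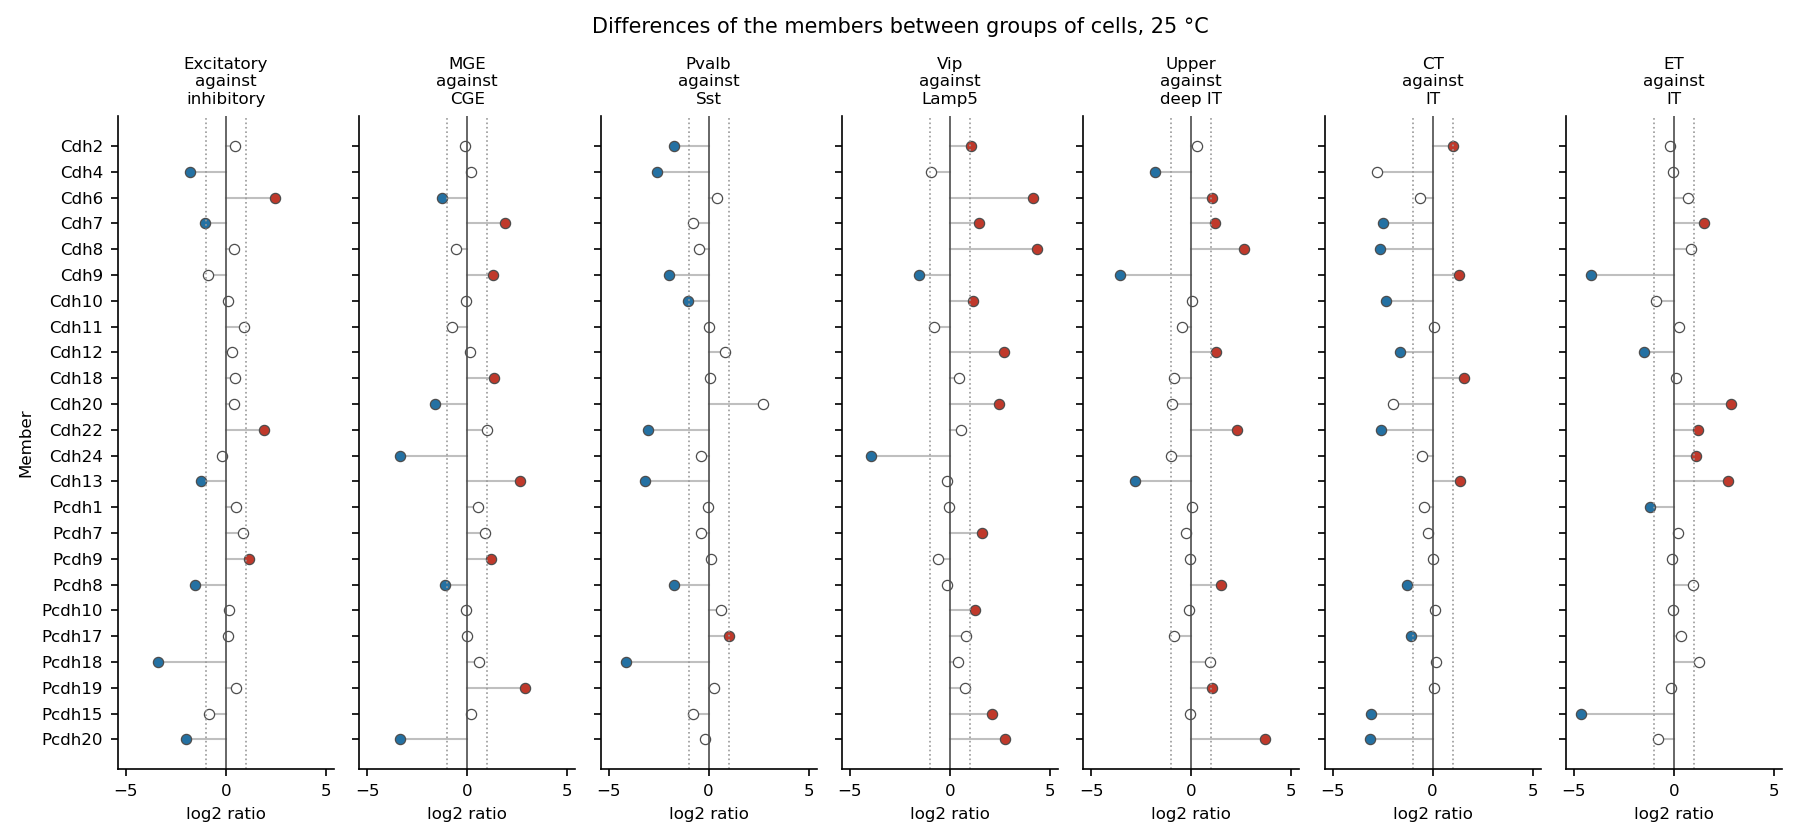
Log2 ratios of the 24 members between groups of cells at 25 °C, 1 panel for each of 7 comparisons, with dotted lines at a 2-fold difference; red and blue mark members counted as higher and lower in the first-named group, open circles the others. In Vip against Lamp5 most filled points lie to the right (11 members higher, 2 lower), and in Pvalb against Sst to the left (1 higher, 8 lower).

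Excitatory families (the mean of IT, ET and CT, 384 cells) were set against inhibitory families (the mean of Pvalb, Sst, Vip and Lamp5, 802 cells). Of 23 members tested, 3 were higher and 6 lower in excitatory families, where 9.05% of all genes were higher and 8.32% lower. Cdh6 was higher, at 77.1 against 13.4 CPM (log2 ratio 2.44, higher on 76 of 97 dates), with family levels of 45.5 to 115 CPM against 1.19 to 37.4 CPM, which did not overlap. Cdh22 stood at 30.1 against 7.31 CPM (1.90, higher on 46 dates) and Pcdh9 at 706 against 314 CPM (1.16, higher on 66 dates). For Pcdh9, too, these families did not overlap, which was not counted over all genes. L6b, NP and Sncg are not in these ranges.

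Pcdh18 was lower in excitatory families, at 4.26 against 55.1 CPM (log2 ratio -3.41, lower on 44 dates and higher on 9). Pcdh20 was at 12.1 against 50.7 CPM (-1.98), a difference carried by Vip, and the dates did not follow it (lower on 17, higher on 21). Cdh4 was at 4.16 against 16.6 CPM (-1.77, lower on 31 dates) and Pcdh8 at 20.8 against 63 CPM (-1.55, lower on 41). Cdh13 was at 71.3 against 168 CPM (-1.22, lower on 64) and Cdh7 at 31.8 against 67.4 CPM (-1.06, lower on 62). For all 6 of these lower members, and for Cdh22, the family levels of the classes overlapped, so the means do not describe each family. Oligodendrocyte markers summed to 1281 CPM in excitatory and 594 CPM in inhibitory families, and their part in these values was not tested.

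Among interneurons, the Pvalb and Sst families are known to arise in the medial ganglionic eminence (MGE) and the Vip and Lamp5 families mostly in the caudal one (CGE). Between them (558 against 244 cells), 6 of 24 members tested were higher in MGE families, where 7.12% of all genes were, and 5 were lower, where 6.09% of all genes were. Pcdh19 was at 32.4 against 3.58 CPM (log2 ratio 2.87, higher on 22 of 43 dates and lower on 4), and both MGE families were above Vip and Lamp5. The Sncg family (13 cells), which the paper also groups as CGE-derived, was too small for these means. Its Pcdh19 level lay near those of Pvalb and Sst, and its Cdh9 level was the highest of all families. Cdh13 was at 290 against 45.9 CPM (2.63, higher on 23 dates), with Pvalb (57.5 CPM) much nearer to Vip and Lamp5 than to Sst. Cdh7 (106 against 28.4 CPM, 1.87, higher on 23 dates), Cdh18 (41.1 against 15.8 CPM, 1.33, on 26), Cdh9 (103 against 41.4 CPM, 1.29, on 22) and Pcdh9 (439 against 190 CPM, 1.2, on 31) were the other higher members. For Cdh7, Cdh18 and Pcdh9 both MGE families were above Vip and Lamp5, which was not counted over all genes. For Cdh9 they were not, since Pvalb (40.6 CPM) was below Lamp5 (62 CPM). Within the earlier period, which holds 6 Vip and 8 Lamp5 cells, Cdh9 was at 81.4 against 77.7 CPM (0.07).

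Lower in MGE families were Pcdh20 (8.25 against 93.2 CPM, log2 ratio -3.35, lower on 11 of 43 dates), Cdh24 (0.840 against 17.7 CPM, -3.35, lower on 18), Cdh20 (5.15 against 17.5 CPM, -1.59, lower on 14), Cdh6 (7.51 against 19.3 CPM, -1.25, lower on 11) and Pcdh8 (39.2 against 86.8 CPM, -1.13, lower on 22). Pcdh20, Cdh24 and Pcdh8 were higher in both Vip and Lamp5 than in either MGE family, which was not counted over all genes. Cdh6 was not, since Lamp5 had the lowest level of the 4, and neither was Cdh20, at 4.72 CPM in Lamp5 and 9.68 CPM in Pvalb, and within the later period the ratio of Cdh6 was -0.80.

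Between the 2 MGE families, Pvalb cells, mostly fast-spiking basket and chandelier cells, had 1 of 20 members tested higher than Sst cells, mostly dendrite-targeting cells (background 6.72%), and 8 lower (background 6.4%). Pcdh18 was at 6.18 CPM (counting interval 5.96 to 6.41) against 126 CPM (125 to 127), a log2 ratio of -4.15, lower on 25 of 37 dates and higher on 1. Cdh13 was at 57.5 CPM (56.8 to 58.1) against 522 CPM (520 to 524), a ratio of -3.16, lower on 32 dates and higher on 3. Cdh22 stood at 1.42 against 18.6 CPM (-3.02, lower on 17 dates), Cdh4 at 4.34 against 31 CPM (-2.58, lower on 21) and Cdh9 at 40.6 against 165 CPM (-2.0, lower on 23). The 8 included both type I members that reached 10 CPM.

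Cdh2 was at 28.5 against 96.2 CPM (log2 ratio -1.72, lower on 23 of 37 dates), Pcdh8 at 17.9 against 60.4 CPM (-1.70, lower on 23) and Cdh10 at 59.97 against 125 CPM (-1.05, lower on 28). The member counted as higher in Pvalb was Pcdh17, at 148 against 73.5 CPM (1.0, higher on 24 dates). Without the single cell richest in the gene, Pcdh17 fell under 2-fold (0.96), and so did Cdh10 (-0.97). Within the earlier period, Pcdh17 was at 0.56 and Cdh10 at -0.62, and within the later period Pcdh17 was at 1.29.

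Vip and Lamp5 are the larger CGE families, and Vip cells include cells that target other interneurons: 11 of 22 tested were higher in Vip (background 10.7%) and 2 lower (background 8.72%). Cdh8 was at 114 CPM (counting interval 113 to 116) against 4.71 CPM (4.36 to 5.08), a log2 ratio of 4.34, higher on 11 of 17 dates and lower on none. Cdh6 was at 37.4 against 1.19 CPM (4.14, higher on 13 dates) and Pcdh20 at 163 against 23.3 CPM (2.76, on 13). In thinned Vip cells these 3 were read in 44.3%, 28.9% and 35.6%. Cdh12 (67.8 against 9.73 CPM, 2.68, on 11), Cdh20 (30.2 against 4.72 CPM, 2.45, on 6) and Pcdh15 (96 against 21.9 CPM, 2.08, on 14) followed. Pcdh7, Cdh7, Pcdh10, Cdh10 and Cdh2 were higher by log2 ratios between 1.08 and 1.63, and Cdh2 fell just under 2-fold (0.99) without the cell richest in it. Within the 6 Vip and 8 Lamp5 cells of the earlier period, Cdh10 had the opposite sign (-0.14).

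Cdh24 was the member most in favour of Lamp5, at 34.1 CPM (33.1 to 35.1) against 1.32 CPM (1.16 to 1.49) in Vip, a log2 ratio of -3.92, lower in Vip on 7 dates and higher on none. Cdh9 was at 20.8 CPM in Vip and 62 CPM in Lamp5 (-1.53), lower on 7 and higher on 6 of 17 dates, so the dates did not share a direction. Most cells of both families are from the later period.

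Within the IT family, cells of upper t-types (L2/3 and L4/5, 141 cells) had 8 of 21 members tested higher than cells of deep t-types (L5 and L6, 112 cells), where 5.33% of all genes were, and 3 lower, where 4.55% of all genes were. Pcdh20 was at 43.8 against 2.53 CPM (log2 ratio 3.67, higher on 9 of 24 dates, lower on 1), Cdh8 at 121 against 18.4 CPM (2.65, higher on 17) and Cdh22 at 44.9 against 8.40 CPM (2.29, higher on 13). Pcdh8 (1.49, on 6 dates), Cdh12 (1.23, on 13) and Cdh7 (1.18, on 14) came next, at 28.6, 131 and 33.6 CPM in upper cells. Cdh6 (97.8 against 46.5 CPM) and Pcdh19 (36.4 against 17.2 CPM) were just past 2-fold, and without the richest cell Cdh12 (1.0, just below the threshold), Cdh6 (0.98) and Pcdh19 (0.86) were not.

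Cdh9 had the largest ratio in favour of deep cells: it was at 4.10 CPM (3.82 to 4.40) in upper and 58.7 CPM (57.6 to 59.7) in deep cells, a log2 ratio of -3.55, lower in upper cells on 10 of 24 dates and higher on 4. Cdh13 was at 4.23 against 35.6 CPM (-2.81, lower on 8 dates, higher on 2), but within the earlier period at 4.57 against 5.68 CPM (-0.26). Cdh4 was at 2.18 against 10.1 CPM (-1.81, lower on 4 dates and higher on 4). Without the richest cell, its deep level was 7.67 CPM. Its ratio was 1.69 in the earlier period. The deep t-types were not alike. In L5 IT_1 (61 cells), the largest of them, Cdh9 was at 6.48, Cdh13 at 4.72 and Cdh4 at 0.392 CPM. These levels were near or below those of upper cells. L6 IT_2 (25 cells) had Cdh9 at 199 CPM. The mix of t-types was not separated from the period. Within the later period, Cdh6 (0.35), Cdh7 (0.46) and Pcdh8 (0.87) were under 2-fold, and so were Cdh12 (0.90) and Pcdh19 (0.75) within the earlier one. Cdh6 and Cdh9, whose upstream letters are shown above, thus lay on opposite sides over all cells. The oligodendrocyte markers summed to 494 CPM in upper and 968 CPM in deep cells, and their part was not tested.

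CT cells, which project to the thalamus, had 4 of 20 members tested higher than IT cells (background 5.3%) and 9 lower (background 15.5%). With median-of-ratios scaling, which lifts all ratios by 0.35 on the log2 scale, 57.7% of all calls were higher, against 25.5% with totals, and the members counted 4 and 7. Lower were Pcdh20 (1.63 against 22.3 CPM, log2 ratio -3.15, lower on 5 of 28 dates), Pcdh15 (9.90 against 90.9 CPM, -3.08, on 17), Cdh8 (10.2 against 67.5 CPM, -2.61, on 18), Cdh22 (3.51 against 25.9 CPM, -2.58, on 8), Cdh7 (3.34 against 23.6 CPM, -2.50, on 10) and Cdh10 (35.1 against 177 CPM, -2.31, on 22). Cdh12 (-1.62), Pcdh8 (-1.26) and Pcdh17 (-1.09) were lower by less, the last 2 being the calls lost under that scaling.

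The higher members were Cdh18 (71 against 23.4 CPM, log2 ratio 1.56, higher on 17 of 28 dates), Cdh13 (55.2 against 20.6 CPM, 1.38, on 7), Cdh9 (81.6 against 32.6 CPM, 1.30, on 10) and Cdh2 (141 against 68.9 CPM, 1.02, on 11). For Cdh13, Cdh9 and Cdh2 more dates were lower (12, 11 and 15) than higher, and Cdh2 was at 0.68 without the cell richest in it. All CT cells but 1 are from the later period, whereas 165 of 253 IT cells are older, and within the later period Cdh18 kept its call (2.01) while Cdh13 (0.44), Cdh9 (0.32) and Cdh2 (0.77) did not. IT cells of the later period had Cdh13 at 40.6 and Cdh9 at 65.5 CPM. Over both periods, L6 IT_2 had these 2 genes at 125 and 199 CPM and L5 IT_1 at 4.72 and 6.48 CPM, and the mix of IT t-types was not separated from the period. Of the 9 lower members, 8 were also lower within the later period, the exception being Pcdh8 (-0.59). The microglial markers summed to 308 CPM in CT and 933 CPM in IT, the oligodendrocyte markers to 1472 and 741 CPM, and their part was not tested.

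ET cells of layer 5, which project out of the telencephalon, had 5 of 22 members tested higher than IT cells (background 9.45%) and 4 lower (background 10.6%). Pcdh15 was at 2.65 CPM (counting interval 2.37 to 2.95) against 90.9 CPM (89.99 to 91.85), a log2 ratio of -4.66, lower on 21 of 22 dates. Cdh9 was at 0.885 against 32.6 CPM (-4.15, lower on 11 dates, higher on 1), Cdh12 at 31.3 against 91.7 CPM (-1.52, lower on 17) and Pcdh1 at 42.4 against 99.2 CPM (-1.21, lower on 15). Within the earlier period, which holds 43 of the 48 ET cells, Cdh9 was at 1.06 against 7.21 CPM (-1.99), under the minimum of 10 CPM, and Pcdh1 was just under 2-fold (-0.95). Of these members, Pcdh15 had its direction on nearly all shared dates.

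Cdh20 was higher in ET, at 40.8 against 4.69 CPM (log2 ratio 2.88, higher on 16 of 22 dates), with a median of 27.8 CPM over ET and 0 over IT cells. Cdh13 was at 138 against 20.6 CPM (2.69, higher on 15 dates, lower on 1), and at 88.3 CPM (2.05) without its richest cell. Cdh7 (68.4 against 23.6 CPM, 1.5, on 14), Cdh22 (60.8 against 25.9 CPM, 1.2, on 16) and Cdh24 (14 against 5.95 CPM, 1.12, on 12) were higher too, but without the richest cell Cdh22 (0.87) and Cdh24 (0.67) were under 2-fold. In L5 PT_1, 31 of the 48 ET cells, Cdh7 was at 20.2 and Cdh22 at 37.5 CPM, against 214 and 142 CPM in the 9 L5 PT_4 cells. Cdh13 (223 and 0.202 CPM) and Cdh24 (21.5 and 2.52 CPM) went the other way, and Cdh20 was at 32.8 and 54.2 CPM. Of the 48 ET cells, 43 are from the earlier period, and within the 5 later cells Cdh13 (-0.59) and Cdh24 (-2.22) had the opposite sign, Cdh7 was at 0.58 and Cdh20 at 2.60. Oligodendrocyte markers summed to 1630 CPM in ET and 741 CPM in IT, and their part was not tested.

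**Figure D4:**
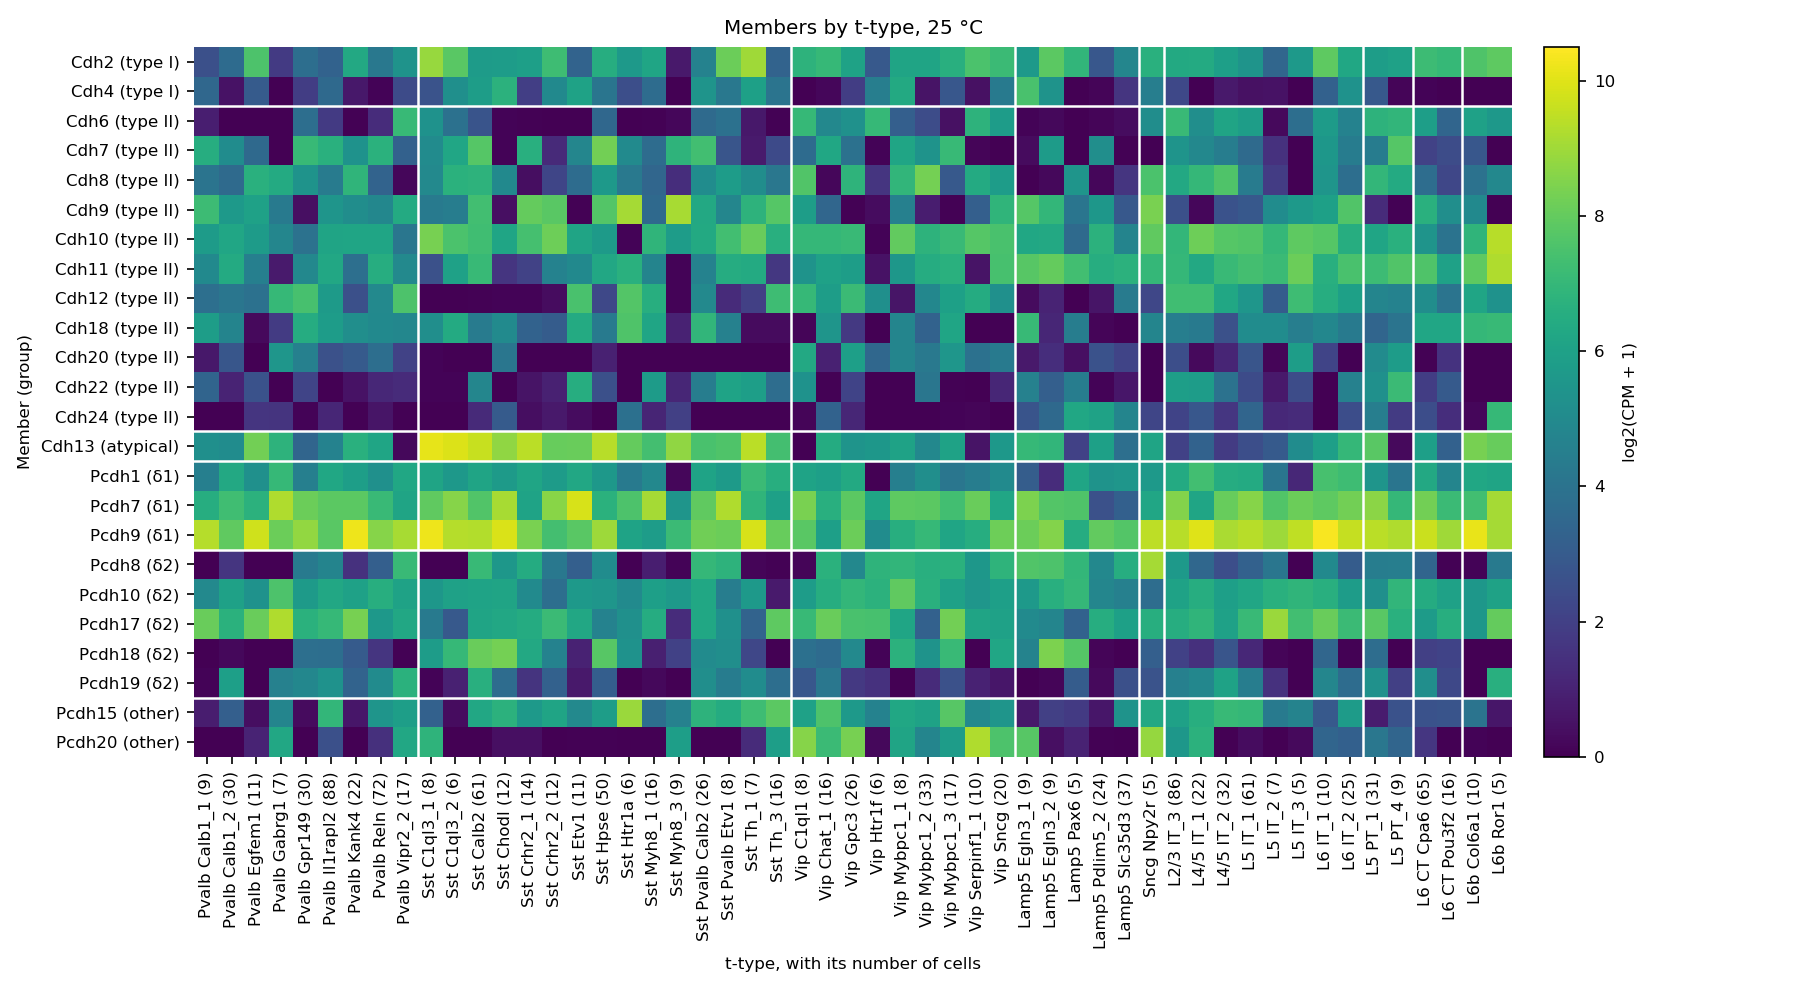
Levels of the 24 members, as log2(CPM + 1) in colour, in the 53 t-types of at least 5 cells at 25 °C, with cell numbers; white lines part the groups of members and the families. Neighbouring columns of 1 family often differ in which rows are bright, as for Cdh13 in L5 PT_1 (223 CPM) and L5 PT_4 (0.202 CPM).

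Within families, members differed strongly between t-types of at least 5 cells, as did most genes at these cell numbers. At least a 4-fold span was reached by 23 of 23 members tested over the 9 Pvalb t-types (background 68.1%), 24 of 24 over the 15 Sst t-types (93%), 24 of 24 over the 9 Vip t-types (81%), 20 of 21 over the 5 Lamp5 t-types (72.3%) and 19 of 23 over the 8 IT t-types (77.9%). Median spans on the log2 scale were 5.78 against 2.82 over all genes in Pvalb, 6.80 against 4.25 in Sst, 6.37 against 3.96 in Vip, 4.83 against 3.36 in Lamp5 and 5.16 against 3.31 in IT. With so few cells, a t-type can owe its level to 1 of them, so levels without the richest cell are given too.

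In Pvalb, Cdh13 was highest in Pvalb Egfem1 (306 CPM, 187 without its richest cell) and lowest in Pvalb Vipr2_2 (0.180 CPM). Cdh7 was highest in Pvalb Gpr149 (133 CPM) and Cdh9 in Pvalb Calb1_1 (144 CPM). Cdh6 (134 CPM, 108 without the richest cell) and Pcdh8 (138 CPM, 113 without it) were highest in Pvalb Vipr2_2, a t-type named for a chandelier-cell marker. Set against the other 269 Pvalb cells, a contrast chosen after its values were seen, the 17 Pvalb Vipr2_2 cells had Cdh6 at 134 against 2.51 CPM, with reads in 13 of 17 cells against 27 of 269. They also had Pcdh8 at 138 against 11.9 CPM, Cdh12 at 191 against 48.5 CPM and Pcdh19 at 103 (66.4 without its richest cell) against 32.1 CPM, and little Cdh8 (0.135 against 35 CPM) or Cdh13 (0.180 against 60.3 CPM). Pcdh20, at 78.6 CPM there, had 99.9% of its reads in 1 cell. The share of all genes past 2-fold in this contrast is not given. The 17 cells came from 7 dates, and this t-type was not among those compared between the periods. Of the 286 Pvalb cells, 152 are from the earlier period, so t-type and date were not separated here. The microglial markers summed to 3178 CPM in Pvalb Vipr2_2, the highest sum of the 53 t-types, and to between 319 and 1692 CPM in the other Pvalb t-types, and their part was not tested.

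In Sst, Cdh9 was highest in Sst Myh8_3 (564 CPM, 414 without its richest cell, reads in 9 of 9 cells) and lowest in Sst Etv1 (0.0566 CPM). Cdh2 was highest in Sst Th_1 (518 CPM, 336 without its richest cell) and lowest in Sst Myh8_3 (0.630 CPM), and Pcdh18 was highest in Sst Chodl (317 CPM, 201 without its richest cell). Cdh10 was highest in Sst C1ql3_1 (326 CPM, 201 without the richest cell). Pcdh15 peaked in Sst Htr1a, but its 489 CPM fell to 92.4 CPM without 1 of the 6 cells. Cdh13 was between 165 CPM (Sst Th_3) and 1098 CPM (Sst C1ql3_1) in all 15 Sst t-types, so its high family level was not owed to a few of them.

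The 12 Sst Chodl cells, long-range projecting in textbook accounts, were set against the other 260 Sst cells in a contrast again chosen after its values were seen. The share of all genes past 2-fold between them is not given. Cdh7 was at 0.0885 against 138 CPM (1 of 12 against 149 of 260 cells with a read), Cdh9 at 0.354 against 169 CPM (2 against 172 cells) and Cdh11 at 2.03 against 62 CPM. Cdh4 was at 108 against 29 CPM, Pcdh18 at 317 (201 without its richest cell) against 121 CPM, Pcdh9 at 948 against 408 CPM and Pcdh7, with 39.8% of its reads in 1 cell, at 563 against 247 CPM. Cdh13 was at 431 against 524 CPM, but in Sst Chodl 61.4% of its reads came from 1 cell and 8 of 12 cells had a read, against 211 of 260 in the others.

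In Vip, Pcdh20 was highest in Vip Serpinf1_1 (601 CPM, 458 without its richest cell) and lowest in Vip Htr1f (0.171 CPM), with at least 10 CPM in 8 of 9 t-types. Cdh8 was highest in Vip Mybpc1_2 (318 CPM, reads in 25 of 33 cells) and lowest in Vip Chat_1 (0.151 CPM). Cdh10 was highest in Vip Mybpc1_1 (249 CPM), and Pcdh18 (137 CPM, 99.9 without the richest cell) and Cdh7 (135 CPM) in Vip Mybpc1_3.

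In Lamp5, the 5 members of widest span peaked in Egln3 t-types: Pcdh18 in Lamp5 Egln3_2 (340 CPM, 238 without its richest cell, no read in the 37 Slc35d3 cells), and Pcdh20 (216 CPM, 162 without its richest cell), Cdh4 (176 CPM), Cdh18 (133 CPM, 88.3 without its richest cell) and Pcdh7 (343 CPM) in Lamp5 Egln3_1. In IT, Cdh8 was highest in L4/5 IT_2 (193 CPM, reads in 32 of 32 cells) and unread in the 5 L5 IT_3 cells. Cdh9 was highest in L6 IT_2 (199 CPM, reads in 19 of 25 cells) and at 0.140 CPM in L4/5 IT_1. Cdh6 was highest in L2/3 IT_3 (136 CPM, reads in 62 of 86 cells), Pcdh20 in L4/5 IT_1 (108 CPM, reads in 7 of 22) and Pcdh1 in L6 IT_1 (174 CPM). The IT peaks thus lay in different layers for different members.

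Of the ET t-types, L5 PT_1 (31 cells) and L5 PT_4 (9 cells) differed past 2-fold in several members, in a contrast chosen after its values were seen. The share of all genes that did so is not given. Cdh13 was at 223 CPM in L5 PT_1, with reads in 28 of 31 cells and 43.1% of them in 1 cell, and at 0.202 CPM in L5 PT_4, with reads in 1 of 9. Cdh7 was at 20.2 against 214 CPM (14 of 31 against 8 of 9 cells) and Cdh22 at 37.5 against 142 CPM, and in L5 PT_4 1 cell held 39.5% of the Cdh7 and 47.3% of the Cdh22 reads. Pcdh19 was at 38.8 against 2.99 CPM, Pcdh7 at 405 against 128 CPM, Pcdh17 at 225 against 101 CPM and Pcdh10 at 36.7 against 118 CPM. Cdh24, Pcdh1 and Pcdh18 were also higher in L5 PT_1, with all Pcdh18 reads in 1 cell. Pcdh9 (685 and 614 CPM), Cdh6 (109 and 118 CPM) and Cdh2 (57.2 and 63.1 CPM) lay close together. The microglial markers summed to 535 CPM in L5 PT_1 and 1549 CPM in L5 PT_4 and the astrocyte markers to 418 and 926 CPM, and their part was not tested.

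Between 9 and 21 members reached 10 CPM in a t-type, with a median of 15, and the 53 t-types had 52 different sets of such members. Sets of other genes were not counted, so this number is not a result about the members. The t-types sharing a set were L2/3 IT_3 and L4/5 IT_1, and Pcdh9 was the member in all sets. Over the 276 pairs of the 24 members, Pearson's r of log2 levels across the 53 t-types ran from -0.51 to 0.56 with a median of 0.05, as a description of t-types that share libraries and dates. The highest were Pcdh1 with Pcdh19 (0.56) and Cdh4 with Cdh13 (0.49), and the lowest Cdh12 with Pcdh18 (-0.51).

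The cells of 34 °C gave a second set of libraries for 1 comparison, Sst against IT, taken over the same 9 Sst t-types and the same 2 t-types of L4/5 and L5 IT at both temperatures, in different proportions. At 25 °C (199 against 93 cells), 6 of 21 members tested were higher in Sst (background 11.7%) and 3 lower (14.5%). At 34 °C (98 against 39 cells), where 29 of the members were in the table, 7 of 20 were higher (9.28%) and 8 lower (14.1%). Of the 9 members past 2-fold at 25 °C, 7 were past it in the same direction at 34 °C: Cdh13, Pcdh18, Cdh9, Cdh7 and Pcdh8 were higher and Cdh6 and Cdh11 lower, and none of the 9 changed sign. With median-of-ratios scaling, which lifts the 25 °C ratios by 0.23 on the log2 scale, 61.7% of all calls at 25 °C were higher, against 44.7% with totals, and Cdh11 fell under 2-fold (-0.97), as it did within the earlier period at 25 °C (-0.87).

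**Figure D5:**
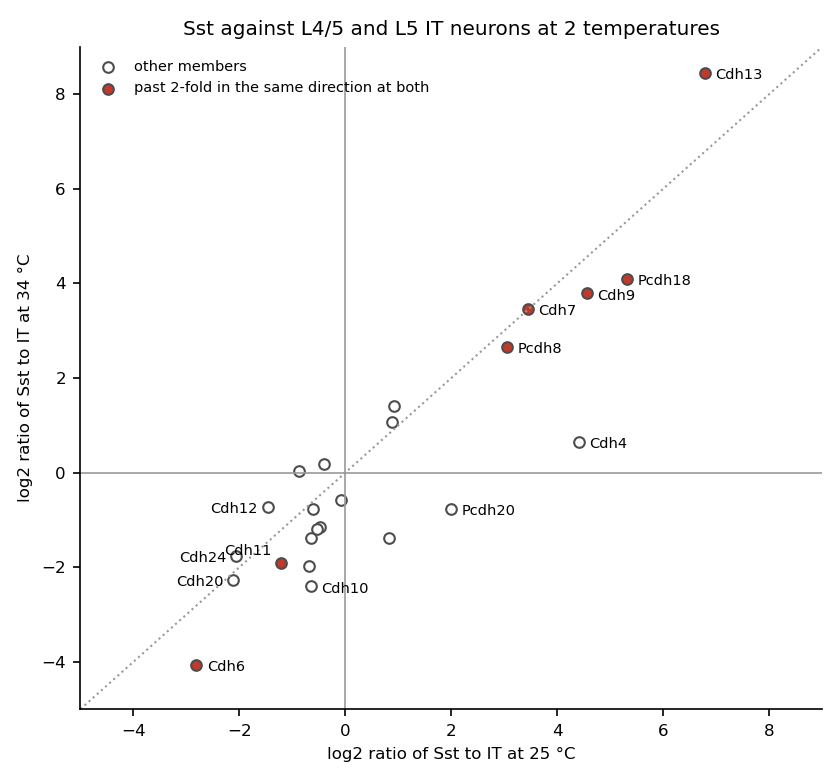
Log2 ratio of Sst to L4/5 and L5 IT cells for the members, at 25 °C on the x axis and 34 °C on the y axis, with equal values on the dotted line; filled points are the 7 members past 2-fold in the same direction at both. Cdh13 lies at the upper right (6.79 and 8.45), Cdh6 at the lower left (-2.81 and -4.06), and Cdh4 below the line (4.40 and 0.66).

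Cdh13 was at 559 CPM in Sst and 4.06 in IT cells at 25 °C (log2 ratio 6.79, higher on 9 of 9 dates) and at 470 and 0.349 CPM at 34 °C (8.45, higher on 3 of 3 dates). Pcdh18 was at 144 against 2.64 CPM (5.32) and at 104 against 5.15 CPM (4.09), Cdh9 at 167 against 6.11 CPM (4.56) and at 92.1 against 5.72 CPM (3.79). Cdh7 was at 167 against 14.4 CPM (3.45) and at 115 against 9.47 CPM (3.46), and Pcdh8 at 69.8 against 7.48 CPM (3.06) and at 28.8 against 3.70 CPM (2.66). The order of the 5 ratios was the same at both temperatures, with Cdh13 first and Pcdh8 last.

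On the IT side, Cdh6 was at 7.66 against 59.8 CPM (log2 ratio -2.81) and at 4.61 against 92.5 CPM (-4.06, lower on 3 of 3 dates). Cdh11 was at 67 against 156 CPM (-1.21, lower on 9 of 9 dates) and at 37.3 against 144 CPM (-1.92). The largest difference between the temperatures was for Cdh4, at 30.03 against 0.466 CPM (4.40) at 25 °C and 9.76 against 5.83 CPM (0.66) at 34 °C, and Cdh12, at -1.45 and -0.72, was the other call not met.

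Past 2-fold only at 34 °C were Cdh2 and Cdh22, higher in Sst by log2 ratios of 1.07 and 1.40, and Cdh8, Pcdh9, Cdh18, Pcdh7, Pcdh15 and Cdh10, lower by -1.15 to -2.41. At 25 °C these 8 had ratios between -0.69 and 0.91, and the difference between temperatures was not tested. The sign of Cdh18 was opposite (0.83 at 25 °C and -1.37 at 34 °C). Without the richest cell, Cdh2 (0.97) and Cdh8 (-0.81) at 34 °C were under 2-fold. In intronic counts of the same cells, Cdh8 (-0.32), Pcdh9 (-0.33) and Pcdh7 (-0.90) were under 2-fold. Pcdh8 had no intronic read in either group and Pcdh18 stood at 4.04 CPM in Sst and 0 in IT, under the minimum. Cdh4 was past 2-fold in introns (1.82), as in exons at 25 °C, and Cdh20 (-2.52) and Pcdh19 (-3.07) were lower. At 34 °C the microglial markers summed to 185 CPM in Sst and 809 CPM in IT cells and the astrocyte markers to 201 and 934 CPM, against 700 and 1193 CPM and 304 and 487 CPM at 25 °C, and their part was not tested. Sst Calb2 gave 61 of 199 Sst cells at 25 °C and 14 of 98 at 34 °C, and Sst Myh8_1 gave 16 and 18. At 25 °C, Cdh12 was at 0.0358 CPM in Sst Calb2 and 96.2 CPM in Sst Myh8_1. Temperature, the synaptic blockers, mice, dates and the mix of t-types changed together and cannot be told apart.

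Across the 12 t-types with at least 5 cells at both temperatures, Pearson's r between the log2 levels of a member at 25 and 34 °C had a median of 0.76 over the 24 members and was at least 0.5 for 17, and 11 members had the same highest t-type. Cdh12 (0.98), Cdh13 (0.96) and Cdh20 (0.95) were the most alike and Cdh4 (-0.03) the least. Between the earlier and the later cells of 25 °C, over 14 t-types, the median was 0.69, 16 members had at least 0.5 and 8 the same highest t-type, with Pcdh9 (0.93), Cdh6 (0.92) and Cdh7 (0.91) at the top and Pcdh10 (-0.59) at the bottom. These are descriptions over t-types whose labels came from the same RNA, and the same values over all genes were not computed. The 12 t-types were 9 of Sst, 2 of IT and L5 PT_1, so differences between classes enter r.

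The intracellular partners of the members were counted by the same rule. Of 11 catenins and adaptors, 10 were tested in each comparison: 3 were higher and 0 lower in excitatory against inhibitory families (9.05% and 8.32% of all genes), 4 and 0 in MGE against CGE families (7.12% and 6.09%), 1 and 1 in Pvalb against Sst, 1 and 2 in Vip against Lamp5, 0 and 0 in upper against deep IT, 1 and 1 in CT against IT, 1 and 2 in ET against IT, and 1 and 4 at 25 °C and 0 and 2 at 34 °C in Sst against IT. Of the 9 genes of the WAVE complex, at most 1 was higher and at most 1 lower in any of the 9 comparisons. Of 13 cadherin-superfamily genes outside the rule, such as Fat, Dachsous and calsyntenin genes, 3 were higher and 2 lower of 11 tested in Vip against Lamp5 (10.7% and 8.72% of all genes), and 0 were higher and 4 lower of 9 tested in CT against IT (5.3% and 15.5%). In the other comparisons at most 2 were higher and at most 3 lower. For comparisons with no share printed here, the shares over all genes are those given with the members.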

How the data were processed

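Patch-seq libraries of single cells were made by the authors with Smart-seq2 and sequenced as single-end reads, aligned with STAR 2.5.4b to mm10 and counted with zUMIs; per the labels, bcl2fastq 2.20 made the read files. The deposited values used here are exonic read counts per gene, and intronic counts at 34 °C as an alternative. The 85 spike-in (ERCC) rows, 4.69% of counts at 25 °C, were left out of totals, and 9 columns that matched no sample were not used.

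For each family or t-type, the exonic counts of its cells were added up and scaled to CPM, with exact 95% Poisson intervals. Excitatory, inhibitory, MGE and CGE levels are means of family CPM, with equal weight. Ratios added a pseudocount of 1 CPM, and genes were tested for the 2-fold rule at 10 CPM or more in the higher group. For shares of cells with a read, each cell was thinned to 200000 counts, with exact binomial intervals. Since the labels name no animal, no model or p-value was used.

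The members and lists were chosen with earlier results of these data known. The named genes are all members: those of at least 10 CPM in a family with their family levels, the others with their highest level, in each comparison those past the rule (full values for up to 6 in each direction), and in each family the 5 of widest span between t-types. Alternatives were a mean over cells, thinned cells, a pseudocount of 10 CPM, a minimum of 1 CPM, median-of-ratios scaling, all families in the means, t-types of at least 10 cells, intronic counts, each period alone, and leaving out the deepest cell. Leaving out the cell richest in the gene and the span over 7 families were added after the data were seen. The code was tested on simulated data. Python 3.11.15, numpy 2.4.6, scipy 1.17.1 and pandas 2.3.3 were used, with GENCODE M21 gene models and RefSeq promoters, both on GRCm38.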

Additional observations from a re-analysis of the deposited data

Results flagged for a closer look

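In ET against IT cells, Cdh18, a type II cadherin that was not past 2-fold over all cells, had a log2 ratio of -1.21 in cells of the earlier period and of 2.36 in those of the later one. It drew attention because the periods had opposite signs. The difference was not tested, and 5 ET cells are from the later period.

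The 92 cells without a t-type, which enter no comparison, held reads of the members, summing to 405 CPM, against 1076 to 3362 CPM in the families. In the same cells the 8 microglial markers summed to 8691 CPM, and the part of such RNA in the lower sum was not tested.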

How the results depend on the processing

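Of the counts of members under the alternatives, 167 stayed within 1.5 times the reported count and 16 did not. With a pseudocount of 10 CPM, lower members in MGE against CGE families numbered 2 (5 as reported), higher members 0 in Pvalb against Sst (1), 4 in upper against deep IT (8) and 3 in ET against IT (5). The single higher member of Pvalb against Sst became 2 with a mean over cells, with thinned cells, at a minimum of 1 CPM and in the earlier period, and 0 with median-of-ratios scaling. All families in the means gave 5 higher members in excitatory families (3 as reported). Within the later period, CT against IT had 1 higher member (4), ET against IT 9 lower (4) and Sst against IT at 25 °C 5 lower (3), which a minimum of 1 CPM made 6. Thinned cells left 2 lower members in ET against IT. With t-types of at least 10 cells, 7 members spanned 4-fold in Lamp5 (20). The sign of a log2 ratio turned for Cdh10 in Vip against Lamp5 in the earlier period (-0.14), Cdh4 in upper against deep IT in the earlier period (1.69), and Cdh13 (-0.59) and Cdh24 (-2.22) in ET against IT in the later period; the causes were not tested. Intronic counts at 25 °C and separate periods at 34 °C were not run, nor the earlier period alone for excitatory against inhibitory families and CT against IT, since 1 CT cell is older. Pairing by animal was not possible because the labels name no animal and replicate numbers only name cells, and no result comes from a test. Directions within shared dates are counted in the report instead. The depth per family and the number of cells limit precision most in NP (5 cells), Sncg (13) and L6b (24).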

Other observations

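At 34 °C, outside the comparison of Sst with IT, 10 Pvalb cells and 12 ET cells were recorded. In Pvalb, Cdh13 was at 185 CPM, Pcdh17 at 146 CPM and Pcdh9 at 413 CPM, and Cdh6 at 0.0772 CPM, from 1 read. A single cell held 59.6% of the Cdh13, 44.7% of the Pcdh17 and 37% of the Pcdh9 reads. In ET, Cdh22 was at 78.8 CPM, Cdh6 at 81.8 CPM, Cdh13 at 60.2 CPM, Cdh20 at 45.6 CPM, Cdh9 at 8.58 CPM and Pcdh15 at 3.33 CPM. In the 43 IT cells of 34 °C, Cdh20 was at 3.59 CPM, Pcdh15 at 87.7 CPM and Cdh9 at 8.70 CPM. The ratios of Cdh20 and Pcdh15 thus had the same direction as at 25 °C, whereas Cdh9 had about the same level in ET and IT cells. The IT t-types differed between temperatures, since 39 of the 43 cells at 34 °C were L4/5 IT_2 or L5 IT_1. In these t-types Cdh9 was at 5.26 and 6.48 CPM at 25 °C, where L6 IT_2 was highest (199 CPM). No test was made.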
